A study of Mus musculus with 8 samples.

Results

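MicroRNAs are made and used by a short chain of proteins, and 10 mouse genes for the core of that chain are described here: *Drosha* and *Dgcr8*, *Dicer1*, the Argonautes *Ago1*, *Ago2*, and *Ago3*, the GW182 scaffolds *Tnrc6a*, *Tnrc6b*, and *Tnrc6c*, and the helicase *Ddx6*. Their mRNAs were followed in RNA immunoprecipitation with sequencing (RIP-seq) of the translation initiation factor eIF4A2. Members were chosen by gene symbol, and all 10 were present among the 52550 genes of the count table. Each also passed a filter on low values, at least 1 CPM (reads on the gene per 1000000 reads on all genes) in all 4 inputs, as did 10754 transcripts in all. The filter reads the inputs alone, so passing it did not depend on the level in a RIP.

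Flag-tagged full-length eIF4A2 (Flag-eIF4A2 FL) was pulled down with 5 µg of anti-Flag antibody for 3 h from lysates of mouse embryonic stem cells (ESCs), and the recovered polyadenylated RNA was sequenced beside input RNA. All 8 libraries came from *Eif4a2* KO ESCs in serum medium with LIF (10 ng/ml) and 2i, the Gsk3 inhibitor CHIR99021 (1.5 µM) and the Mek inhibitor PD0325901 (0.5 µM). They formed 4 groups of 2 libraries: input EV and RIP EV from cells with the empty vector (EV), which held no tagged protein, and input eIF4A2 FL and RIP eIF4A2 FL from cells re-expressing Flag-eIF4A2 FL. The re-expressing cells were clones with a transposon vector whose name gives a CAG promoter and a Flag tag, and 2 clones served as biological replicates. Where the EV replicates came from is not stated, so p-values against them may measure technical spread. The isoform was taken from the study, since the labels name the gene alone. In 1 field of its label, RIP eIF4A2 FL replicate 2 is given as *Eif4a3*, against *Eif4a2* in the other fields.

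In the nucleus, Drosha and its RNA-binding partner Dgcr8 form the Microprocessor, which releases hairpins from primary transcripts. Dicer1 cuts the exported hairpins into short duplexes, an Argonaute keeps a single strand as guide, and a Tnrc6 protein links that Argonaute to the CCR4-NOT deadenylase. Ddx6 binds CCR4-NOT on repressed mRNAs and belongs, like eIF4A2, to the DEAD-box helicases. ESCs rely on this pathway to leave self-renewal, and the miR-290 cluster supplies many of their microRNAs.

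Reads on genes numbered 7269765 and 3204369 in input EV and 4620862 and 6225787 in input eIF4A2 FL. They numbered 2044853 and 3345151 in RIP EV, and 11206420 and 9976801 in RIP eIF4A2 FL. A count of 3, the floor used for a value of 0, corresponds to 1.47 and 0.897 CPM in the RIP EV libraries and to 0.268 and 0.301 CPM in the RIP eIF4A2 FL libraries. Floors and counting intervals cover counting error only, as the reads carry no molecular identifiers. Because QuantSeq sequences a tag at the 3′ end, a transcript gives about 1 tag whatever its length. Length therefore does not bar a comparison of CPM between genes. Reads not uniquely aligned (27.0% to 52.1% of a library) were not counted, so genes sharing sequence with others can read low. CPM is a share of a library, so the amount of RNA recovered is not measured. The RIP EV libraries stood apart from the rest: the spread between replicates (biological coefficient of variation, edgeR) was 159% in RIP EV, against 30.0% in input EV, 28.0% in input eIF4A2 FL, and 23.0% in RIP eIF4A2 FL. Of their reads, 45.8% and 29.7% lay outside annotated exons, against 8.58% to 17.6% in the inputs and 3.30% and 4.13% in RIP eIF4A2 FL. The latter stood apart in mitochondrial reads, with 0.00653% and 0.0123% of reads on genes against 0.616% to 2.44% in the other 6 libraries. *Gm42418*, named after its values were seen, ranged from 701 to 136204 CPM, with 94432 and 701 CPM in the inputs of eIF4A2 FL cells. The part of these differences in the CPM of the members was not tested. Results of the members against RIP EV are therefore given with and without each of its libraries.

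*Eif4a2* itself had tags in every library. In EV cells it stood at 53.8 and 94.2 CPM in the inputs and 56.7 and 126 CPM in the RIPs. In eIF4A2 FL cells it stood at 86.8 and 69.1 CPM in the inputs and 76.7 and 47.4 CPM in the RIPs. The groups overlapped, and the inputs differed by a log2 fold change of 0.10 ± 0.34 (SE, n = 2 libraries each). Counts per gene do not locate the tags relative to the edited exons or the re-expressed coding sequence, so they test neither the knockout nor the rescue. Its paralogs *Eif4a1* and *Eif4a3* stood at 287 to 366 CPM and 219 to 384 CPM in the inputs, and none of the 3 paralogs passed the test in a comparison.

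The label of the cells was checked against marker genes. All 9 ESC markers examined passed the filter, with summed levels of 2423 and 2257 CPM in the EV inputs and 2793 and 2401 CPM in the others, *Tfcp2l1* being the most abundant. *Pou5f1* was the least abundant of the 9, at 19.7 and 9.05 CPM in the EV inputs and 15.8 and 5.78 CPM in the others. It lay below the trophoblast marker *Eomes* in input EV replicate 2 (20.9 CPM) and in input eIF4A2 FL replicate 2 (6.42 CPM). Since reads not uniquely aligned were not counted, these values can understate a gene. Whether they did so for *Pou5f1* was not tested. Of 5 endoderm markers 0 passed, and their summed level stayed at or below 1.08 CPM in every input, with *Sox17* and *Pdgfra* at 0 in all 4. Of 4 fibroblast markers 0 passed, with a sum of up to 6.87 CPM in the inputs, led by *Thy1*, and *Postn* at 0 in all 8 libraries. Among 5 mesoderm and neural markers *Sox1* and *Nes* passed, with a sum of 8.35 to 16.4 CPM in the inputs, and among 4 trophoblast markers *Eomes* passed, with a sum of 3.99 to 24.3 CPM.

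In the inputs, the 10 mRNAs spanned a wide range of abundance. *Drosha*, the nuclease of the Microprocessor, was highest, at rank 377 of 10754 by mean input CPM. *Ago2* (rank 1165), *Dicer1* (1403), and *Tnrc6a* (1833) followed, then *Dgcr8* (2420), *Ddx6* (2554), *Tnrc6c* (3897), *Ago1* (4647), and *Tnrc6b* (5034), with *Ago3* (7818) last. Across the 4 inputs, *Ago2* overlapped its neighbour *Dicer1*, *Dgcr8* overlapped *Ddx6*, *Tnrc6c* overlapped *Ago1*, and *Ago1* overlapped *Tnrc6b*. Elsewhere in this order, each member lay above the next in all 4 inputs. The summed level of the 10 was 1115 and 1191 CPM in the inputs and 993 and 1783 CPM in the RIPs of EV cells. In eIF4A2 FL cells it was 1188 and 871 CPM in the inputs and 2622 and 3318 CPM in the RIPs. Only the last group lay apart from the rest.

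Whether re-expression moved the abundance of these mRNAs was asked by comparing the inputs. No member passed the test. *Ago2*, whose protein is the Argonaute with slicer activity, stood at 153 and 130.4 CPM in input EV and at 200.2 and 179 CPM in input eIF4A2 FL, a log2 fold change of 0.41 ± 0.31 (SE). *Tnrc6c* also lay higher in both eIF4A2 FL inputs (29.4 and 38.1 against 48.9 and 40.8 CPM; 0.42 ± 0.34), the top of the members' range. At the bottom, *Drosha* had 483 and 551 CPM in input EV and 446 and 272 CPM in input eIF4A2 FL (−0.52 ± 0.35), and *Ago3* had 10.7 and 10.3 against 8.22 and 6.91 CPM (−0.49 ± 0.47). By CPM, 2 members lay above in both libraries (19.8% of all transcripts did) and 3 lay below, *Tnrc6a* being the third (17.3% of all transcripts). With TMM factors *Tnrc6a* overlapped. The members' median was −0.18, against −0.01 for all transcripts. By edgeR with Benjamini-Hochberg adjustment, 0 members and 0% of all transcripts passed in either direction, while an unadjusted p under 0.05 was reached by 0 members, 402 transcripts upward, and 394 downward. DESeq2 on the 4 libraries called 12 transcripts higher and 5 lower after adjustment, and 346 and 342 at an unadjusted p under 0.05, with 0 members in either case. In bulk RNA, fewer cells of a type and less RNA per cell cannot be told apart.

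Which of these mRNAs were recovered with Flag-eIF4A2 FL beyond their abundance was asked by comparing RIP eIF4A2 FL with its input. For all 10, both RIP libraries lay above both inputs, as they did for 45.8% of all transcripts by CPM. *Tnrc6c*, *Dicer1*, *Drosha*, and *Tnrc6a* passed the test and rose by 5.45, 3.25, 2.39, and 2.05 fold. The other 6 had fitted ratios of 1.39 to 2.19 and did not pass. The 4 that passed act in hairpin cropping, dicing, and silencing. No Argonaute passed, and Argonautes were not tested against the other members.

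Of the Microprocessor subunits *Drosha* passed and *Dgcr8* did not, and the genes were not tested against each other. *Drosha* (chr15:12824815-12935291 of mm10, plus strand) stood at 446 and 272 CPM in input eIF4A2 FL and at 847 and 1278 CPM in the RIP. Replicate 2 was the lower of the inputs and the higher of the RIPs, and the groups did not overlap. The log2 fold change was 1.25 ± 0.36 (SE, n = 2 libraries each), with both RIP libraries above both inputs (edgeR, Benjamini-Hochberg Padj = 0.0399). *Dgcr8* (chr16:18253948-18289246, minus strand) had 81.6 and 59.9 CPM in the inputs and 135 and 110.1 CPM in the RIP. That is a log2 fold change of 0.47 ± 0.29, the smallest of the 10, and it did not pass (edgeR, Benjamini-Hochberg Padj = 0.275, 2 of 2 RIP libraries above both inputs).

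*Dicer1* (chr12:104687742-104751952, minus strand), which encodes the cytoplasmic nuclease, had 156 and 133 CPM in input eIF4A2 FL and 476 and 681 CPM in the RIP. Both RIP libraries lay far above both inputs. Its log2 fold change of 1.70 ± 0.31 put it at rank 248 of 10754 (edgeR, Benjamini-Hochberg Padj = 0.00819, 2 of 2 RIP libraries above both inputs).

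The Argonautes bind the mature microRNA, and none of their mRNAs passed the test. *Ago2* (chr15:73095844-73184935, minus strand) stood at 200.2 and 179 CPM in the inputs and at 417 and 389 CPM in the RIP. *Ago1* (chr4:126435012-126468583, minus strand) had 28.3 and 23.0 CPM in the inputs and 50.6 and 58.5 CPM in the RIP. For both genes the groups were tight and did not overlap, and both log2 fold changes were 0.78 (SE 0.26 for *Ago2* and 0.29 for *Ago1*). Neither passed (edgeR, Benjamini-Hochberg Padj = 0.0704 and 0.0874, each with 2 of 2 RIP libraries above both inputs). *Ago3*, next to *Ago1* on the same strand (chr4:126331704-126429556), was the least abundant member, with 8.22 and 6.91 CPM in the inputs and 12.8 and 13.2 CPM in the RIP (0.48 ± 0.37). Its groups did not overlap either, at 38 and 43 counts in the inputs and 144 and 132 in the RIP.

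The Tnrc6 scaffolds included the member with the greatest rise. *Tnrc6c* (chr11:117654289-117763439, plus strand) stood at 48.9 and 40.8 CPM in the inputs and at 315 and 292 CPM in the RIP. The replicates of each group were close, and no other member rose as far. Its log2 fold change of 2.45 ± 0.28 placed it at rank 36 of 10754 (edgeR, Benjamini-Hochberg Padj = 0.00165, 2 of 2 RIP libraries above both inputs). *Tnrc6a* (chr7:123123885-123195296, plus strand) went from 101 and 89.9 CPM to 196 and 289 CPM, a log2 fold change of 1.04 ± 0.30 (edgeR, Benjamini-Hochberg Padj = 0.0425, 2 of 2 RIP libraries above both inputs). *Tnrc6b* (chr15:80711313-80941085, plus strand) had 41.8 and 16.4 CPM in the inputs and 61.8 and 96.2 CPM in the RIP. The inputs of *Tnrc6b* were the least alike of any member, and its log2 fold change of 1.13 ± 0.44, though above that of *Tnrc6a*, did not pass (edgeR, Benjamini-Hochberg Padj = 0.104, 2 of 2 RIP libraries above both inputs). *Tnrc6c*, less abundant than *Tnrc6a* in every input, lay above it in RIP eIF4A2 FL replicate 1 and level with it in replicate 2 (2911 and 2880 counts).

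*Ddx6* (chr9:44604892-44640731, plus strand), the helicase at the end of the chain, had 75.7 and 50.6 CPM in the inputs and 111 and 112 CPM in the RIP. The groups did not overlap, and the log2 fold change of 0.50 ± 0.30 did not pass (edgeR, Benjamini-Hochberg Padj = 0.263, 2 of 2 RIP libraries above both inputs).

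**Figure D1:**
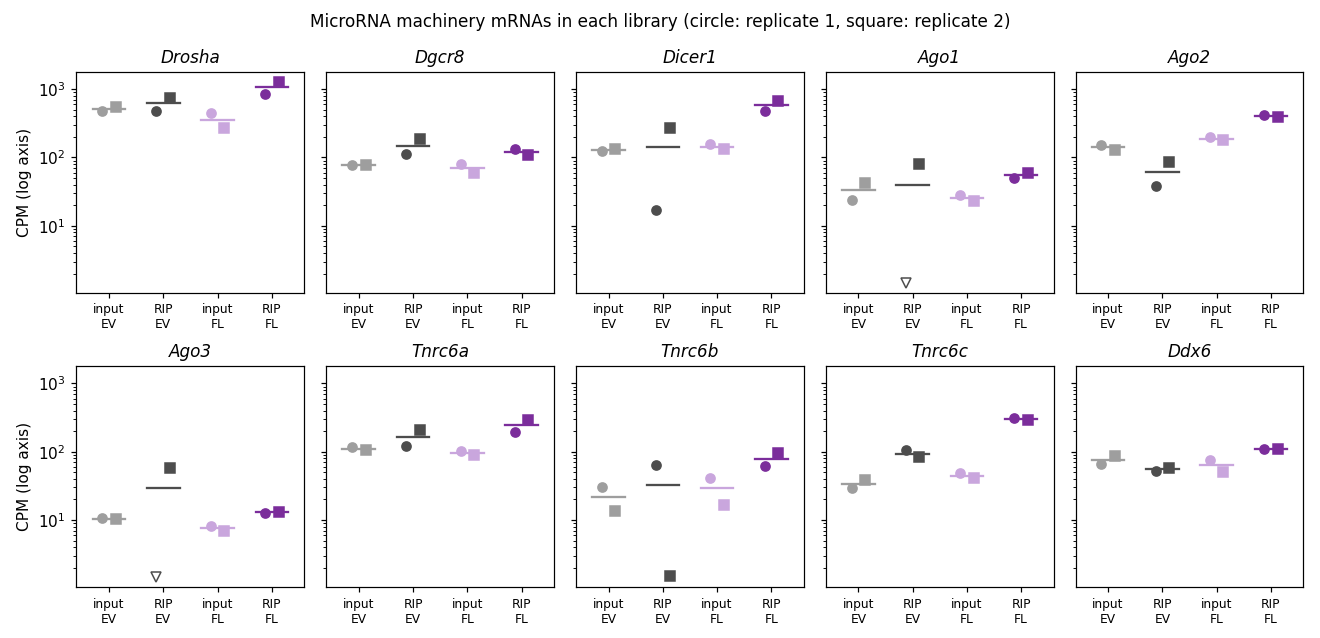
Level of each of the 10 mRNAs in CPM on a log axis, with replicate 1 as a circle, replicate 2 as a square, and the group mean as a line, for input EV, RIP EV, input eIF4A2 FL, and RIP eIF4A2 FL (FL). Open triangles, drawn at the floor of 1.47 CPM, mark 0 counts in RIP EV replicate 1 (*Ago1* and *Ago3*), and in eIF4A2 FL cells the RIP points of all 10 mRNAs lie above their input points.

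Set against all transcripts, 4 of 10 members were called higher, where 8.44% of transcripts were, and 0 were called lower, where 8.46% were (908 and 910 of 10754, edgeR with Benjamini-Hochberg adjustment). At an unadjusted p under 0.05, 7 members and 1863 of 10754 transcripts were higher, and 0 members and 1800 transcripts lower. DESeq2 on the same 4 libraries also called 4 members higher (9.27% of transcripts) and 0 lower, as did limma voom (8.17% of transcripts). The members' median log2 fold change was 0.91, against 0.02 for all transcripts, whose quartiles were −0.53 and 0.57. Both RIP libraries exceeded both inputs for 10 of 10 members by CPM, where 45.8% of transcripts did, and for 10 of 10 with TMM factors, where 31.7% did. Scaling by library size alone moved the median of all transcripts from 0.02 to 0.32 and the split of calls to 1933 higher and 567 lower, with 7 members called higher. With filterByExpr 3 members were called higher (6.64% of transcripts), and with counts thinned to the smallest library 3 were (6.50%). With no filter 5 members were called higher (6.61%).

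The calls differed between fits to 4 and to 8 libraries. When edgeR was fitted to all 8, 0 members and 0% of transcripts were called higher (3 members and 331 of 10754 transcripts at an unadjusted p under 0.05), and DESeq2 on all 8 called 1 member, *Tnrc6c* (2.55% of transcripts). With replicate number as a block, which pairs an input and a RIP of the same number, edgeR called *Tnrc6c* (2.46) and *Dicer1* (1.68) and 6.96% of transcripts higher. *Drosha* (1.27) and *Tnrc6a* (1.01) no longer passed in that fit (edgeR, Benjamini-Hochberg Padj = 0.0739 and 0.0759, each with 2 of 2 RIP libraries above both inputs). The labels do not state that equal numbers are the same clone. Left-out libraries changed calls at the margin: *Drosha* was lost without RIP eIF4A2 FL replicate 2 (0.87) and without input eIF4A2 FL replicate 2 (0.90), and so was *Tnrc6a* (0.67 and 0.91). *Tnrc6b* was gained without input eIF4A2 FL replicate 1 (2.02) and without RIP eIF4A2 FL replicate 1 (1.45) but stood at 0.57 without input eIF4A2 FL replicate 2, and *Ago1* and *Ago2* without input eIF4A2 FL replicate 1 (0.99 and 0.91). The count of members called higher was then 7 without input eIF4A2 FL replicate 1 (12.2% of transcripts), 2 without input eIF4A2 FL replicate 2 (7.72%), 5 without RIP eIF4A2 FL replicate 1 (5.34%), and 2 without RIP eIF4A2 FL replicate 2 (3.75%). *Tnrc6c* and *Dicer1* passed with each of the 4 libraries left out, at log2 fold changes of 2.28 to 2.64 and 1.36 to 1.97.

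What the antibody recovered without a tagged protein was measured by RIP EV against input EV. *Tnrc6c*, *Dgcr8*, and *Tnrc6a* lay above both inputs in both RIP EV libraries, *Ago2* and *Ddx6* lay below, and the other 5 overlapped. None passed the test. Of the 10 log2 fold changes, 8 were above 0 and 9 above the median of all transcripts. Without RIP EV replicate 1 these counts were 7 and 8, and without RIP EV replicate 2 they were 4 and 8. They were 4 and 9 with replicate number as a block, and 4 and 8 with limma voom, chosen after seeing the data.

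*Tnrc6c* had 29.4 and 38.1 CPM in input EV and 105 and 83.1 CPM in RIP EV, a log2 fold change of 1.45 ± 0.65 (SE, n = 2 libraries each). *Dgcr8* had 78.1 and 78.0 CPM in the inputs and 111 and 186 CPM in RIP EV (0.90 ± 0.50), and *Tnrc6a* had 116 and 105 against 121 and 211 CPM (0.55 ± 0.48). Without RIP EV replicate 2 the value for *Tnrc6a* was 0.09. On the other side, *Ago2* had 153 and 130.4 CPM in the inputs but 37.7 and 85.2 CPM in RIP EV (−1.24 ± 0.62), and *Ddx6* had 65.2 and 86.8 against 52.3 and 57.7 CPM (−0.49 ± 0.62). *Drosha* stayed close to its input, at 483 and 551 CPM against 484 and 755 CPM (0.23 ± 0.35).

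The replicates of RIP EV disagreed on the remaining members. *Dicer1* had 17.1 CPM in replicate 1 and 266 CPM in replicate 2, on either side of its inputs at 125 and 134 CPM. *Ago1* had 0 and 79.2 CPM (24.2 and 42.1 CPM in the inputs), and *Ago3* had 0 and 58.0 CPM (10.7 and 10.3 CPM in the inputs). For both Argonautes, replicate 1 lay below its floor of 1.47 CPM and replicate 2 above both inputs. *Tnrc6b* showed the opposite order, with 64.6 CPM in replicate 1 and 1.49 CPM in replicate 2 against 30.3 and 13.7 CPM in the inputs. A group mean describes neither library for these 4 genes, and their log2 fold changes (0.10 ± 1.23 for *Dicer1*, 0.25 ± 2.33 for *Ago1*, 1.43 ± 2.51 for *Ago3*, 0.52 ± 1.86 for *Tnrc6b*) carry matching errors.

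In counts, 3 of 10 members lay above both inputs in both RIP EV libraries, where 14.6% of transcripts did, and 2 lay below, where 44.9% did. By edgeR with Benjamini-Hochberg adjustment, 0 members and 0% of transcripts passed in either direction. At an unadjusted p under 0.05 it was 0 members, 460 transcripts higher, and 2715 lower. DESeq2 on the 4 libraries called 0 members, where 2.97% of transcripts were called higher and 4.68% lower, as did limma voom, where 1.00% and 23.5% were. With all 8 libraries, edgeR called 1 member higher (4.50% of transcripts), *Tnrc6c*, and DESeq2 called *Tnrc6c* and *Dgcr8* higher (10.00% of transcripts) and *Ago2* lower (32.0%). The members' median of 0.38 compares with −0.65 for all transcripts, whose quartiles were −3.08 and 0.61. Without RIP EV replicate 1 these medians were 0.95 and −0.64, and without RIP EV replicate 2 they were −0.35 and −3.145. They were −0.71 and −1.85 with replicate number as a block, and −0.54 and −1.90 with limma voom, chosen after seeing the data. Without RIP EV replicate 1, edgeR called 5 members higher (*Ago3* 2.42, *Ago1* 1.25, *Tnrc6c* 1.28, *Dgcr8* 1.22, *Dicer1* 1.01) and 1 lower (*Tnrc6b* −3.92), where 16.9% of transcripts were called higher and 41.1% lower. Without RIP EV replicate 2 it called *Tnrc6c* (1.61) and *Tnrc6b* (1.47) higher and *Ago2* (−1.95), *Dicer1* (−2.95), *Ago1* (−10.08), and *Ago3* (−8.45) lower, the last pair on 0 counts and so no measured folds, where 16.2% of transcripts were called higher and 60.3% lower.

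**Figure D2:**
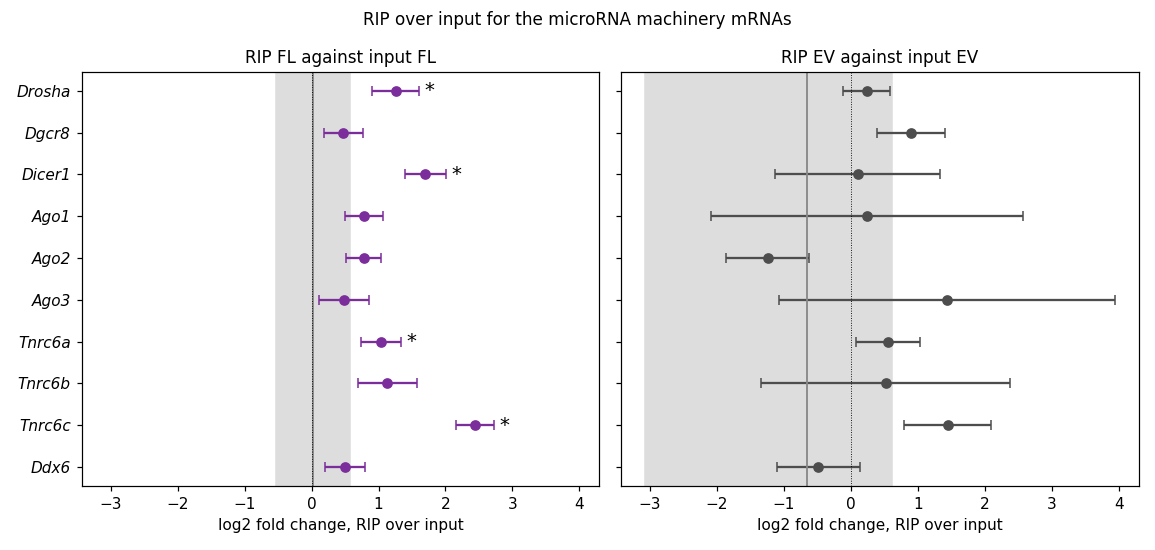
Log2 fold change from input to RIP (point) with its standard error (bar) for the 10 mRNAs, in eIF4A2 FL cells (left) and EV cells (right), with the median of all transcripts as a line, their quartiles as a grey band, and an asterisk where the edgeR test passed. In eIF4A2 FL cells *Tnrc6c* (2.45), *Dicer1* (1.70), *Drosha* (1.25), and *Tnrc6a* (1.04) carry the asterisk, and in EV cells none does.

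Recovery with the tagged protein was also set against the antibody alone, by RIP eIF4A2 FL against RIP EV, which shares its RIP eIF4A2 FL libraries with the comparison to input. *Ago2* and *Tnrc6c* were set furthest apart from RIP EV in relation to their spread. *Ago2* had 417 and 389 CPM against 37.7 and 85.2 CPM, and *Tnrc6c* had 315 and 292 CPM against 105 and 83.1 CPM. *Dicer1* (476 and 681 against 17.1 and 266 CPM), *Drosha* (847 and 1278 against 484 and 755 CPM), and *Ddx6* (111 and 112 against 52.3 and 57.7 CPM) were also higher in both RIP eIF4A2 FL libraries. *Dgcr8* was not: its 135 and 110.1 CPM in RIP eIF4A2 FL overlapped the 111 and 186 CPM of RIP EV. With TMM factors *Drosha* overlapped and *Dgcr8* lay below in both.

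For *Ago2* the log2 fold change was 2.47 ± 0.56 (SE, n = 2 libraries each), the highest of the members here. It did not pass (edgeR, Benjamini-Hochberg Padj = 0.0655, 2 of 2 libraries above), nor did *Tnrc6c* at 1.46 ± 0.34 (edgeR, Benjamini-Hochberg Padj = 0.0690, 2 of 2 libraries above). The order of the members thus differed from that against input, where *Ago2* had ranked below 6 other members. *Dicer1* followed at 1.78 ± 1.34, *Tnrc6b* at 1.06 ± 1.73, *Ddx6* at 0.78 ± 0.50, *Drosha* at 0.55 ± 0.40, *Tnrc6a* at 0.31 ± 0.49, and *Ago1* at 0.21 ± 2.38. *Dgcr8* (−0.52 ± 0.47) and *Ago3* (−1.41 ± 2.53) had negative values, the latter from the 58.0 CPM of RIP EV replicate 2.

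By CPM, 5 of 10 members lay higher in both RIP eIF4A2 FL libraries, where 51.9% of transcripts did, so the members did not stand out in this comparison. Their median was 0.67, beside 0.67 for all transcripts, or 0.63 with the 1961 transcripts at 0 in both RIP EV libraries placed at their bound. Without RIP EV replicate 1 the fitted medians were 0.47 for the members and 0.66 for all transcripts, and without RIP EV replicate 2 they were 1.13 and 3.07. With replicate number as a block they were 1.56 and 1.94. By edgeR with Benjamini-Hochberg adjustment, 0 members and 0% of transcripts passed in either direction. An unadjusted p under 0.05 was reached by 2 members, *Ago2* and *Tnrc6c*, and by 2578 transcripts upward and 571 downward. The same 2 members were called higher by DESeq2 on the 4 libraries (7.75% of transcripts), by edgeR on all 8 (24.8% of transcripts), and by DESeq2 on all 8 (30.4% of transcripts). With replicate number as a block edgeR called *Ago2* (2.59) and *Dicer1* (2.81) and 1.95% of transcripts, and limma voom, chosen after seeing the data, called 0 members and 21.7% of transcripts higher.

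Both calls also appeared with either RIP EV library left out, at 1.98 (without RIP EV replicate 1) and 3.21 (without RIP EV replicate 2) for *Ago2* and 1.61 and 1.33 for *Tnrc6c*. Without RIP eIF4A2 FL replicate 1 or replicate 2, 0 members were called, with 0.186% and 0.205% of transcripts higher and 0.456% and 0.744% lower. Other members turned on a single library. Without RIP EV replicate 1, *Tnrc6b* (5.46) and *Dicer1* (0.87) were also called higher and *Ago1* (−0.79), *Ago3* (−2.41), and *Dgcr8* (−0.87) lower, where 43.8% of transcripts were called higher and 21.6% lower. Without RIP EV replicate 2, *Ago1* (11.71) and *Ago3* (9.65), both on 0 counts and so no measured folds, *Dicer1* (4.88), *Drosha* (0.94), *Ddx6* (0.88), and *Tnrc6a* (0.80) were called higher, as were 59.0% of transcripts, and 0 members were lower, where 18.6% were.

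Whether the change from input to RIP differed between the cell lines was tested directly, as the interaction in a fit of all 8 libraries. *Ago2* came closest. Its RIP lay above its input in eIF4A2 FL cells (417 and 389 against 200.2 and 179 CPM) and below it in EV cells (37.7 and 85.2 against 153 and 130.4 CPM). The difference in log2 fold change was 2.01 ± 0.59 and did not pass (edgeR, Benjamini-Hochberg Padj = 0.0549, with 2 of 2 RIP libraries above both inputs in eIF4A2 FL cells and 2 of 2 below in EV cells). *Ddx6* had the same arrangement on a smaller scale (0.98 ± 0.57; edgeR, Benjamini-Hochberg Padj = 0.336).

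For the 4 members that passed over input, the difference was 1.61 ± 1.40 for *Dicer1*, 1.01 ± 0.54 for *Drosha*, 0.97 ± 0.48 for *Tnrc6c*, and 0.47 ± 0.55 for *Tnrc6a*. None of these differences passed, so a larger recovery of these 4 with the tagged protein than with the antibody alone was not shown. By edgeR with Benjamini-Hochberg adjustment, 0 of 10 members passed in the higher direction, where 19.2% of transcripts did (2068 of 10754), and 0 in the lower, where 2.10% did (226). At an unadjusted p under 0.05 it was 1 member, *Ago2*, and 2721 transcripts upward. DESeq2 on all 8 libraries (24.5% of transcripts) and scaling by library size alone (20.6%) also called *Ago2*. Limma voom called 0 members and 0% of transcripts in either direction. The members' median was 0.77, against 0.64 for all transcripts, or 0.59 with bounds. Without RIP EV replicate 1 the fitted medians were 0.73 for the members and 0.68 for all transcripts, and without RIP EV replicate 2 they were 1.29 and 3.05. With limma voom they were 1.41 and 1.66. *Ago2* passed in 2 of 8 fits with a library left out, at 1.57 without RIP EV replicate 1 (35.9% of transcripts called higher, 11.8% lower) and 2.79 without RIP EV replicate 2 (54.0% and 12.4%). In the other 6 such fits 0 members were called, with 12.2% of transcripts called higher and 0.651% lower without input EV replicate 2 and 0% in either direction in the other 5. Besides *Ago2*, *Tnrc6b* (5.11), *Tnrc6c* (1.18), and, in the lower direction, *Ago3* (−1.93) passed without RIP EV replicate 1. *Ago1* (11.63), *Ago3* (9.71), *Dicer1* (4.71), and *Drosha* (1.44) passed without RIP EV replicate 2. The values of *Ago1* and *Ago3* in the latter fit rest on 0 counts in the remaining RIP EV library and are no measured folds.

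Other genes of the pathway were taken as 4 lists, and in RIP eIF4A2 FL against input their calls went in both directions: 6 of 41 genes tested rose (14.6%, against 8.44% of all transcripts) and 4 fell (9.76%, against 8.46%). Of 9 tested Microprocessor cofactors and export factors, 0 rose and 1 fell, *Srsf3*, which helps Drosha recognise hairpins (log2 fold change −0.96; edgeR, Benjamini-Hochberg Padj = 0.0373, 2 of 2 RIP libraries below both inputs). Of 8 Dicer partners and Argonaute loading factors, 0 rose and 2 fell, the chaperone gene *Hspa8* (−2.15) and *Tsn* (−0.93), a subunit of the nuclease that clears passenger strands. Exons of *Hspa8* overlap *Snord14c*, *Snord14d*, and *Snord14e* on its strand. The medians of these lists were −0.26 and −0.79. Among 8 genes for let-7 control and small RNA tailing, 2 rose and 0 fell: *Trim71* (1.42), a ubiquitin ligase and known let-7 target, and *Tut7* (1.14), which adds uridines to let-7 precursors. Of 16 decapping and P-body genes, 4 rose: *Limd1* (1.42), whose protein binds Argonautes, *Edc4* (1.17), the decapping scaffold, *Eif4enif1* (1.40), which binds eIF4E, and *Lsm14b* (1.10). One fell, *Lsm14a* (−1.02), named after its values were seen. Each of these 10 calls was lost with at least 1 library left out: *Srsf3* (−0.84), *Tsn* (−1.10), *Trim71* (1.15), *Tut7* (0.79), *Limd1* (1.39), *Edc4* (1.13), *Eif4enif1* (1.26), *Lsm14b* (1.16), and *Lsm14a* (−0.85) without RIP eIF4A2 FL replicate 2, and *Hspa8* (−2.06) without RIP eIF4A2 FL replicate 1. The medians of the latter 2 lists were 0.61 and 0.65, against 0.91 for the 10 members. *Hnrnpa1*, *Ago4*, and *Tent2* did not pass the filter.

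In the comparisons of RIP eIF4A2 FL with RIP EV, RIP EV with its input, and the inputs, 0 genes of these lists were called by edgeR with Benjamini-Hochberg adjustment. Their most abundant genes had log2 fold changes against RIP EV of −1.07 (*Srsf3*), −0.37 (*Hsp90ab1*), −1.23 (*Xrn2*), and 1.56 (*Pabpc1*), against 0.55 for *Drosha*, the most abundant member. In EV cells the RIP stood to its input at 0.21 for *Srsf3*, 0.92 for *Hsp90ab1*, 1.28 for *Xrn2*, and −1.04 for *Pabpc1*, against 0.23 for *Drosha*. Between the inputs these 4 genes had 0.05, 0.37, 0.39, and −0.37, against −0.52 for *Drosha*.

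The 10 mRNAs share a feature that the choice of symbols did not use: all are long. Each has a longest annotated transcript above the median of 3293 bases over the transcripts tested, 7 are in the longest 10%, and the members' median is 9017 bases. *Tnrc6b* (17332 bases), *Ago3* (15595), and *Ago2* (13800) are the longest, and *Drosha* (4570) and *Dgcr8* (4320) the shortest. Across 10751 transcripts with a length, log2 fold change and length had a Spearman rho of 0.361 in RIP eIF4A2 FL against input, 0.133 in RIP EV against input, 0.0245 in RIP eIF4A2 FL against RIP EV, and 0.119 between the inputs. These are descriptions across transcripts of the same libraries, which are not independent replicates. The 1076 longest transcripts had a median log2 fold change of 0.70 in RIP eIF4A2 FL against input, between the 0.02 of all transcripts and the 0.91 of the members. Against RIP EV their median was 1.06 (0.67 for all transcripts), in RIP EV against input −0.18 (−0.65), and between the inputs 0.12 (−0.01). The part of length in the members' rises was not tested.

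Their 3′ UTRs differ far more. *Ago3* (12742 bases), *Tnrc6b* (11609), and *Ago2* (11064) have the longest annotated ones, *Drosha* has 169 bases, and the median over all transcripts is 1190. *Ago1* has 4491, *Ddx6* 4250, *Dicer1* 3851, *Tnrc6c* 2588, *Tnrc6a* 2345, and *Dgcr8* 1574. Exons of *Ago2* overlap those of *Chrac1* and exons of *Dgcr8* those of *Trmt2a* on the opposite strand, and *Drosha*, *Tnrc6a*, *Tnrc6b*, and *Dgcr8* overlap small annotated genes on their own strand. Reads there could have been assigned to either gene or dropped as ambiguous.

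Since these mRNAs encode the machinery that reads microRNA seeds, their 3′ UTRs were searched for the seed matches of 2 families, the miR-290 cluster of ESCs and let-7. Mature sequences from RefSeq (GRCm38.p6) show the shared seed, bases 2 to 8, in capitals.
mmu-miR-294-3p: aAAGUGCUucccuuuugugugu
mmu-miR-295-3p: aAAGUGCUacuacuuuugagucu
mmu-let-7a-5p: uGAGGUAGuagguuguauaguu
mmu-let-7g-5p: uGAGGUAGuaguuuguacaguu

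The match to the first seed, AGCACTT on the transcript strand, occurs once in *Tnrc6c*, in 2 places in *Tnrc6b*, and in 3 places in *Ago3*, and in 0 places in the other 7 members. Over all tested transcripts with an annotated 3′ UTR, 17.9% hold it (1803 of 10071), whatever their UTR length. The match to the let-7 seed, CTACCTC, occurs in 3 places in *Ago2* and once in *Ago3*, and 10.9% of transcripts hold it (1096). Shown here with flanking bases from GENCODE vM21 transcripts on mm10 are the sites of the member with the greatest rise over input, and of *Ago2*, the member highest against RIP EV. Capitals mark the match.
*Tnrc6c*, chr11:117762123-117762151, plus strand: gcggccggccgAGCACTTggacgtggtgg
*Ago2*, chr15:73101714-73101742, minus strand: atgcataaaagCTACCTCtgacttctcat
*Ago2*, chr15:73100030-73100058, minus strand: tggcctctgtcCTACCTCcaggcactggc
*Ago2*, chr15:73097972-73098000, minus strand: acaatgtggatCTACCTCagttaaacagt
A match describes letters in a window and does not show a functional site. *Dicer1*, *Drosha*, and *Tnrc6a*, which also passed the test over input, hold neither match.

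*Dgcr8* carries a microRNA hairpin of its own. The RefSeq entry for Mir1306 lies at chr16:18284239-18284317 on the minus strand, bases 524 to 602 of the 4320-base *Dgcr8* transcript, within the coding sequence (425 to 2743). It had 0 counts as a separate gene in all 8 libraries, and its bases lie far from the 3′ end that the tags sample. *Dgcr8* itself had 377 and 373 counts in the eIF4A2 FL inputs and 1509 and 1098 in the RIP.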

How the data were processed

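The deposited values are raw counts that the authors made with HTSeq (version 0.11.2) after trimming and alignment to mm10 by STAR (version 2.5.3a). Annotation release and strand setting: not given in the sources used here. Of the gene identifiers, 52403 matched GENCODE vM21, which supplied names, positions, and lengths. The 5 summary lines stayed out of totals and tests. They held 27.0% to 52.1% of a library's reads as not uniquely aligned, 3.30% to 45.8% as outside exons, and 0.366% to 0.759% as ambiguous. The tests took transcripts at 1 CPM or more in each of the 4 inputs.

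Counts of the 4 libraries compared (all 8 for the interaction) were fitted with edgeR (version 4.0.16, R version 4.3.3), TMM factors, and quasi-likelihood F tests, two-sided. P-values were adjusted over all transcripts by the Benjamini-Hochberg method, with a threshold of 0.05. Groups had 2 libraries, so calls depend on a spread estimated jointly over genes. Alternatives were library size alone, DESeq2 size factors, filterByExpr, no filter, DESeq2 (version 1.42.0) on the compared or all 8 libraries, edgeR on all 8, a block for replicate number, counts thinned to the smallest library, each library left out, and, chosen after seeing the data, voom of limma (version 3.58.1) with group weights.

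Members and lists were chosen with earlier results of these data known. Named genes are the 10 members, *Eif4a2* and its paralogs, *Gm42418*, up to 4 genes per list and comparison past the threshold by smallest p, and otherwise the most abundant gene of a list. Lists were Microprocessor cofactors and export, Dicer partners and Argonaute loading, let-7 control and small RNA tailing, decapping and P-body factors, eIF4A paralogs, and markers of ESCs, endoderm, mesoderm and neural cells, trophoblast, and fibroblasts.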

Additional observations from a re-analysis of the deposited data

Results flagged for a closer look

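For 2 of 10 members, *Ago2* and *Ddx6*, both RIP libraries lay above both inputs in eIF4A2 FL cells and below both in EV cells, as they did by CPM for 17.1% of all transcripts (1843 of 10754). The interaction gave 2.01 ± 0.59 for *Ago2* and 0.98 ± 0.57 for *Ddx6* on the log2 scale and did not pass for either (edgeR, Benjamini-Hochberg Padj = 0.0549 and 0.336, 2 of 2 RIP libraries on the named side in each cell line).

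In the 4 lists, 41 genes were tested, and 7 of them (17.1%) passed that interaction test higher in eIF4A2 FL cells, where 19.2% of all transcripts did, and 1 (2.44%) lower, where 2.10% did. For *Xpo5*, the exporter of microRNA hairpins (10.39), *Lin28b*, a blocker of let-7 processing (9.28), *Dis3l2*, an exonuclease for tailed let-7 precursors (8.44), *Tarbp2*, a Dicer partner (7.65), and *Dcp1b*, a decapping cofactor (7.29), both RIP EV libraries had 0 counts. Their fitted values are therefore no measured folds. Against a floor of 3 counts over both RIP EV libraries (0.557 CPM, counting error only), RIP eIF4A2 FL was at least 79.4-fold higher for *Xpo5*, 20.5-fold for *Lin28b*, 33.9-fold for *Dis3l2*, 3.54-fold for *Tarbp2*, and 8.76-fold for *Dcp1b*. *Lsm14b* (8.59) had 0 and 3 counts in RIP EV, for a ratio of RIP eIF4A2 FL to RIP EV of 291 (95% exact interval 99.4 to 1411). *Limd1* (6.89) had 0 and 2 counts there, for a ratio of 100.3 (27.7 to 829). The floor and these intervals cover counting error only. They leave out the spread between the RIP EV libraries, a biological coefficient of variation of 159%.

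*Hspa8* went the other way (−6.25 ± 0.77; edgeR, Benjamini-Hochberg Padj = 0.0176, 2 of 2 RIP libraries below both inputs in eIF4A2 FL cells and 2 of 2 above in EV cells). It had 176 and 200.3 CPM in RIP EV, 2.05 and 2.21 CPM in RIP eIF4A2 FL, and 6.49 to 15.0 CPM in the inputs. Exons of *Hspa8* overlap *Snord14c*, *Snord14d*, and *Snord14e* on its strand, and reads not uniquely aligned were not counted. The part of either in its values was not tested.

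These 8 calls did not hold in every fit. With replicate number as a block 7 of the 8 passed, as with no filter, and *Dcp1b* was lost in both. With counts thinned to the smallest library 6 passed, without *Dis3l2* and *Dcp1b*. With a library left out, all 8 passed without RIP EV replicate 1 or replicate 2, and 5 passed without input EV replicate 2, the 3 lost being *Tarbp2* (7.45), *Dcp1b* (7.77), and *Limd1* (6.97). None of the 8 passed without input EV replicate 1 (*Hspa8* −5.85), input eIF4A2 FL replicate 1 (−6.43) or replicate 2 (−6.04), or RIP eIF4A2 FL replicate 1 (−6.07) or replicate 2 (−6.21), fits in which 0% of transcripts passed in either direction. Limma voom, chosen after seeing the data, also called 0 of the 8 and 0% of transcripts.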

How the results depend on the processing

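Of 720 log2 fold changes of members under alternatives, 621 kept their direction and side of the threshold, 51 kept the direction and passed it, 15 kept the direction and no longer passed, and 33 changed direction. In RIP eIF4A2 FL against input these numbers were 117, 8, 15, and 0 of 140. With 1 library left out, the lone library of a group is assumed to vary like the others. A count of 0 in RIP EV gives only an upper bound, 1.47 CPM in replicate 1 and 0.897 CPM in replicate 2.

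Members called higher in RIP eIF4A2 FL against input (4) became 1 with DESeq2 on all 8 libraries, 0 with edgeR on all 8, 7 with library size alone, and 2 to 7 with a library left out. Against RIP EV (0 higher, 0 lower), 2 were called higher with DESeq2 on all 8 libraries, 2 with DESeq2 on the 4 compared, 2 with edgeR on all 8, and, with a library left out, 0 to 8 higher and 0 to 3 lower. In RIP EV against input (0 and 0), DESeq2 on all 8 gave 2 members higher and 1 lower, edgeR on all 8 gave 1 higher, and fits with a library left out called 0 to 5 higher and 0 to 4 lower. For the interaction (0 and 0), DESeq2 on all 8 libraries called 1 higher, library size alone 1, and fits with a library left out 0 to 5 higher and 0 to 1 lower. The cause was not tested.

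With the replicate number as a block (paired fit), 2 members were called higher against input (*Tnrc6c* 2.46 and *Dicer1* 1.68, with *Drosha* 1.27 and *Tnrc6a* 1.01 no longer passing). Against RIP EV 2 were called higher (*Ago2* 2.59 and *Dicer1* 2.81). Elsewhere 0 members were called. The shares of transcripts called higher and lower there were 1.43% and 2.53% in RIP EV against input and 0.363% and 0.205% between the inputs. For the interaction they were 14.9% and 1.25%. The block reversed *Ago3* against RIP EV (1.66) and, in RIP EV against input, *Ago1* (−2.69), *Ago3* (−1.55), *Tnrc6b* (−1.02), and *Dicer1* (−0.95). Deviations of paired replicates had correlations of 0.0201 between input EV and RIP EV, −0.00782 between input and RIP eIF4A2 FL, 0.126 between the inputs, and −0.0276 between the RIPs. Voom with group weights, chosen after seeing the data, reversed the same 5 results, *Ago3* against RIP EV (2.18) and *Ago1* (−3.41), *Ago3* (−2.16), *Tnrc6b* (−1.39), and *Dicer1* (−0.64) in RIP EV against input, as well as *Ago3* in the interaction (1.76), which the block did not reverse. The cause was not tested.

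Directions also changed with a library left out. Against RIP EV the ranges were −0.79 to 11.71 for *Ago1*, −2.41 to 9.65 for *Ago3*, and −0.0573 to 0.80 for *Tnrc6a*. In RIP EV against input they were −10.08 to 1.25 for *Ago1*, −8.45 to 2.42 for *Ago3*, −3.92 to 1.47 for *Tnrc6b*, −2.95 to 1.01 for *Dicer1*, and −0.13 to 0.52 for *Drosha*. Between the inputs they were −0.62 to 0.0172 for *Ago1*, −0.50 to 1.18 for *Tnrc6b*, −0.41 to 0.10 for *Dgcr8*, and −0.61 to 0.0451 for *Ddx6*. For the interaction they were −0.46 to 11.63 for *Ago1*, −1.93 to 9.71 for *Ago3*, −0.26 to 5.11 for *Tnrc6b*, and −0.73 to 0.0675 for *Dgcr8*. The ends furthest from 0 for *Ago1* and *Ago3* in comparisons with RIP EV rest on 0 counts and are no measured folds. The cause was not tested.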
